A study of Mus musculus with 21 samples.

Results

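The arginine tRNAs described here are those with the anticodons ACG, TCG, CCG and CCT. They were chosen by row name, as all nuclear arginine rows of the deposited count tables other than Arg-TCT, a rule that uses no measured value. This gave 14 isodecoders (tRNA sequences that share an anticodon but differ elsewhere) of 213 tRNA rows in the series, and the same 14 were listed for both tissues: 3 for ACG, 4 for TCG, 3 for CCG and 4 for CCT. Counts summed over the isodecoders of each anticodon were examined as well. All 14 rows and all 4 sums passed the filter on low counts in both tissues, so none was left out.

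The libraries came from cerebellum and cerebrum of C57BL/6J mice of both sexes, fed ad libitum, all of which received tamoxifen at postnatal day 28 and were sampled at postnatal day 42. The groups were Polr3a mutant cerebellum (n = 5), wildtype cerebellum (n = 6), Polr3a mutant cerebrum (n = 4) and wildtype cerebrum (n = 6). Both genotypes were treated alike with tamoxifen, which the labels give as the inducer of recombination, but the labels name neither the mutant allele nor the driver of recombination. They do not say whether libraries came from separate animals, so each p-value covers the spread between libraries alone. A tRNA library does not measure Polr3a or the mRNA markers of a brain region, and neither genotype nor tissue could be checked in that way.

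Nuclear tRNAs are transcribed by RNA polymerase III, whose largest subunit is encoded by Polr3a, from promoter elements that lie inside the tRNA gene. Each tRNA carries its amino acid to the codons that its anticodon can pair with. Among the arginine tRNAs, the A of ACG is converted to inosine and the tRNA reads mainly CGU and CGC, while TCG reads CGA, CCG reads CGG, CCT reads AGG and TCT reads mainly AGA. The mitochondrial arginine tRNA also has the anticodon TCG, but it is transcribed from mitochondrial DNA by another polymerase. It was measured in the same libraries, and its values are set beside those of the nuclear members.

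RefSeq (GRCm38.p6, the build also called mm10) lists 19 genes for these tRNAs, 6 for ACG, 5 for TCG, 3 for CCG and 5 for CCT, and all 19 are 73 bases long. They lie on 9 chromosomes, with 7 on chromosome 13 and 4 on chromosome 11. By the GENCODE M21 annotation 16 of the 19 lie between genes. The exceptions are n-TRacg3 (chr3:19627959-19628031) within an intron of 1700064H15Rik, n-TRcct1 (chr6:38533931-38534003) within an intron of Fmc1, and n-TRtcg5 (chr7:79466419-79466491) within an exon of Gm10616. The CCT genes n-TRcct5 (chr11:115412981-115413053) and n-TRcct3 (chr11:115413304-115413376) and the TCG gene n-TRtcg4 (chr11:115413779-115413851) lie close together on chromosome 11. The deposited rows carry no gene symbol or position, so no RefSeq gene was assigned to a single isodecoder row. To show what a nuclear and a mitochondrial arginine tRNA with the same anticodon look like, the genomic sequences of n-TRtcg5 (RefSeq, GRCm38.p6, chr7:79466419-79466491, plus strand) and of mt-Tr (GENCODE M21, chrM:9808-9875, plus strand) are printed 5′ to 3′ with the anticodon in capitals.
n-TRtcg5: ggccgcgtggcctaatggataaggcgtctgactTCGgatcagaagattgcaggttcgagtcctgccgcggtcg
mt-Tr: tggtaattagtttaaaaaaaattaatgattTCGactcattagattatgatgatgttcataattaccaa
The anticodon stands at bases 34 to 36 of the nuclear gene and at bases 31 to 33 of the mitochondrial one, which is 68 bases long.

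The cerebellum libraries held 1612754 to 7110313 tRNA counts and the cerebrum libraries 4353056 to 7588902. Depth and genotype ran nearly together in cerebellum: 4 of 5 mutants (numbers 2 to 5) but 1 of 6 wildtype libraries (number 5) lay above 3500000 counts, called deep here, and mutant 1 and the other 5 wildtype libraries lay below, called shallow. The share of mitochondrial tRNA counts was 17.2% ± 3.005 in mutant cerebellum (SD, n = 5) and 13.4% ± 0.700 in wildtype cerebellum (SD, n = 6), and 14.3% ± 1.19 in mutant cerebrum (SD, n = 4) and 11.2% ± 0.445 in wildtype cerebrum (SD, n = 6). A comparison of levels between genotypes therefore depends on what the libraries are scaled to. Values on the TMM scale (CPM, counts per 1e6 counts, after edgeR's TMM scaling) are relative to the whole tRNA pool. Values on the control scale are relative to the 22 mitochondrial tRNAs and the bacterial spike-in RNA, the scale that the authors' own tables use. That scale takes the level of these controls, nearly all of them mitochondrial tRNAs, as equal in all libraries, which was not tested. The amount of spike-in added was not stated. Shares of one isodecoder in its anticodon depend on neither. Isodecoders of 1 anticodon can be nearly identical, and the sources do not say how reads matching more than 1 of them were counted; values of single isodecoders are uncertain to that extent.

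The 4 anticodons made up a smaller part of the nuclear tRNA counts in cerebellum than in cerebrum, and this part overlapped between genotypes. In cerebellum they held 9.57% ± 0.409 of nuclear tRNA counts in mutants (SD, n = 5) and 9.98% ± 0.285 in wildtype (SD, n = 6). In cerebrum they held 12.6% ± 0.540 in mutants (SD, n = 4) and 13.1% ± 0.668 in wildtype (SD, n = 6). By group means the sums ran from Arg-TCG, the highest, through Arg-ACG, Arg-CCG and Arg-CCT to Arg-TCT in all 4 groups. In mutant cerebellum the TCG sum averaged 33210.1 ± 4379 CPM, ACG 20503 ± 610.5 CPM, CCG 14333 ± 999.7 CPM and CCT 10226 ± 682 CPM (SD, n = 5). In wildtype cerebellum the TCG sum averaged 37563 ± 1715 CPM, ACG 22581 ± 1343 CPM, CCG 15135 ± 1677 CPM and CCT 12171 ± 1368 CPM (SD, n = 6). In mutant cerebrum the TCG sum averaged 42391 ± 6236 CPM, ACG 31731 ± 5693 CPM, CCG 17992 ± 2726 CPM and CCT 14626 ± 2254 CPM (SD, n = 4). In wildtype cerebrum the TCG sum averaged 49364 ± 2609 CPM, the ACG sum 35796 ± 2815 CPM, the CCG sum 17701 ± 2046 CPM and the CCT sum 15159 ± 2796 CPM, with Arg-TCT at 7169 ± 586 CPM (SD, n = 6). The CCG and CCT sums overlapped in range in every group but mutant cerebellum, with 15416 to 20899 CPM for CCG and 12207 to 19611 CPM for CCT in wildtype cerebrum. The TCG (33343 to 47417 CPM) and ACG sums (25222 to 38994 CPM) overlapped in mutant cerebrum. Within each single library, though, the TCG sum lay above the ACG sum and the CCG sum above the CCT sum. The annotated genes of these 4 anticodons have 1 length, so gene length does not set their CPM apart, and those of Arg-TCT are 74 to 87 bases long. Whether different tRNAs yield reads equally was not tested, so the order of the sums is an order of counts. Within the members, levels ran in wildtype cerebrum from 409 ± 29.8 CPM for Arg-CCT-3-1 to 22894 ± 1815 CPM for Arg-TCG-3 (SD, n = 6).

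**Figure D1:**
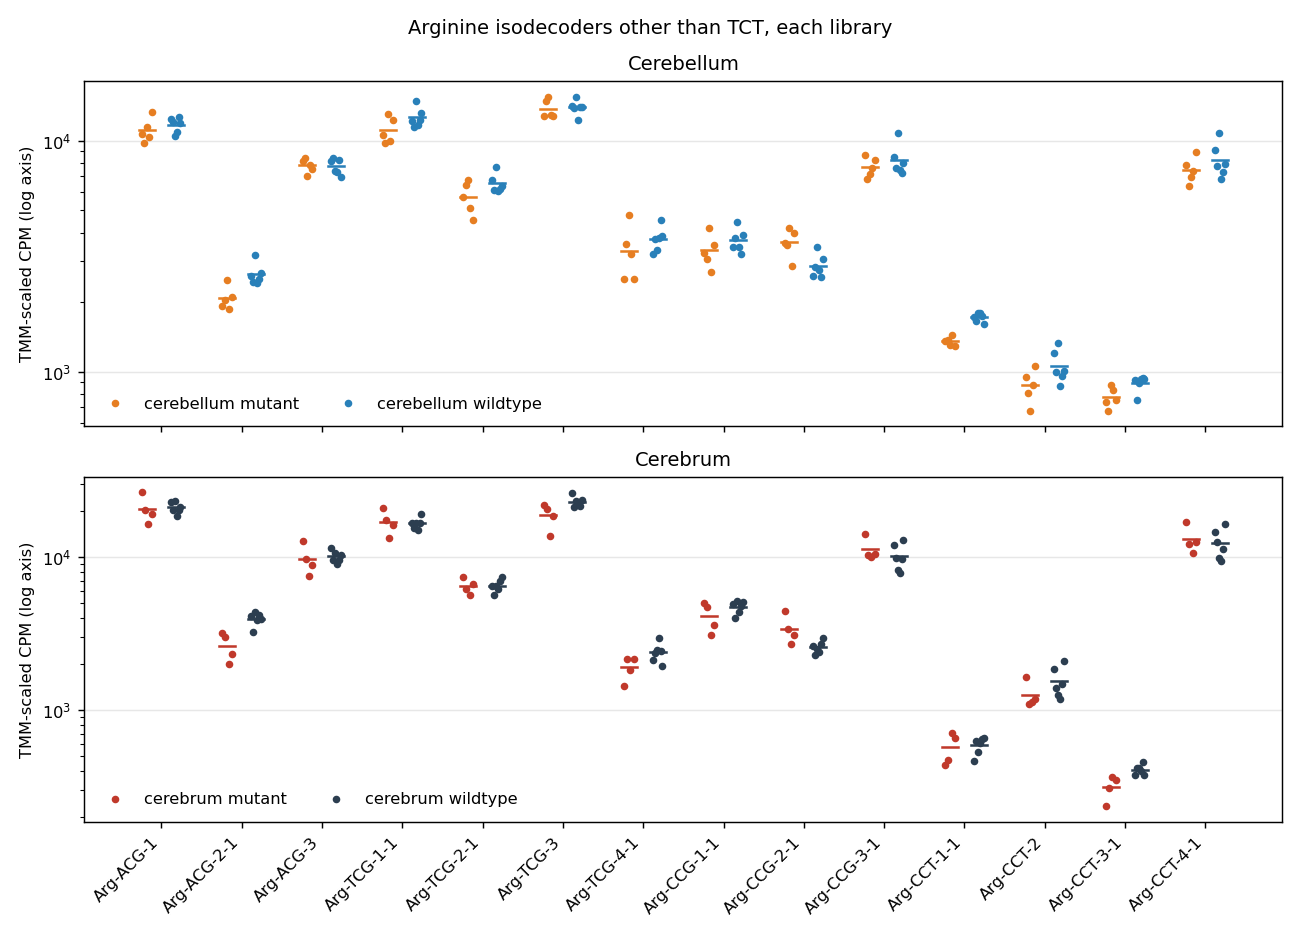
TMM-scaled CPM of the 14 isodecoders on a log axis, cerebellum above and cerebrum below; each point is 1 library, lines are group means, and mutants stand left of wildtype. In cerebrum the 4 mutants lie below all 6 wildtype libraries for Arg-ACG-2-1 and Arg-CCT-3-1, and in cerebellum the 5 mutants lie below all 6 wildtype libraries for Arg-CCT-1-1; the tissues were scaled apart.

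In mutant cerebrum, relative to the whole tRNA pool, Arg-ACG-2-1 was lower and Arg-CCG-2-1 was higher (with a log2 fold change of 0.00 on the control scale), and neither the other 12 isodecoders nor the 4 sums passed the test. Arg-ACG-2-1, a minor isodecoder of the inosine-read anticodon, stood at 3161, 2991, 1996 and 2338 CPM in mutant cerebrum. In wildtype cerebrum it stood at 3215 to 4370.4 CPM (median 4038). Every mutant lay below every wildtype library on this scale. With all 21 libraries scaled together the groups overlapped, with up to 3731 CPM in mutants and from 3535 CPM in wildtype. The log2 fold change of Arg-ACG-2-1, with cerebrum scaled alone, was −0.59 ± 0.14 (SE; edgeR's quasi-likelihood test, adjusted p after Benjamini-Hochberg = 0.00385). It passed in each of the 10 fits that left out 1 library, with adjusted p from 0.000692 to 0.0203. In bulk tissue, fewer cells of a type and less of a tRNA per cell cannot be told apart.

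Arg-CCG-2-1 read 4444, 3383, 2678 and 3077 CPM in mutant cerebrum. In wildtype cerebrum it read 2274 to 2953 CPM (median 2560.3), and the groups overlapped through mutant 3. Its log2 fold change was 0.40 ± 0.13 (SE; edgeR adjusted p = 0.0347). The call was lost without cerebrum mutant 1 (0.29), mutant 2, wildtype 2, wildtype 3 or wildtype 4, with an adjusted p of up to 0.0779 among the fits that left out 1 library, and also when library totals replaced TMM (0.34).

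These 2 calls among 14 isodecoders stand beside 19.7% of all 208 cerebrum tRNAs called, 11.5% lower and 8.17% higher. Of the 17 tRNAs called higher, 15 were mitochondrial. Of the 186 nuclear tRNAs, 2 were called higher, Arg-CCG-2-1 among them, and 24 lower. The median log2 fold change was −0.05 over the members, −0.03 over all tRNAs tested and −0.07 over the nuclear ones. An unadjusted p under 0.05 was found for 5 of the 14 members, 67 of all 208 tRNAs and 50 of the 186 nuclear ones (edgeR). Of the other 12, Arg-CCT-3-1, the least abundant member in cerebrum, came closest to the threshold. It stood at 235, 309, 368 and 352 CPM in mutant cerebrum. Wildtype cerebrum had 378 to 458 CPM (median 409). All mutants lay below all wildtype libraries, as they did for 9.62% of all cerebrum tRNAs. With all 21 libraries scaled together the groups overlapped, with up to 422 CPM in mutants and from 370 CPM in wildtype. The log2 fold change of Arg-CCT-3-1 in cerebrum was −0.37 ± 0.14 (SE) and did not pass (edgeR adjusted p = 0.0641). It passed with sex as a covariate (−0.40) and without cerebrum mutant 3 (−0.45). Arg-TCG-4-1 (−0.33), Arg-TCG-3 (−0.30) and Arg-CCT-2 (−0.29) had the next largest negative log2 fold changes, and the remaining 8 lay between −0.20 and 0.15.

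Over the 14 isodecoders, the mutant cerebrum libraries varied more among themselves than the wildtype ones, and other tRNAs were not examined for this. The coefficient of variation of TMM CPM had a median over the 14 isodecoders of 20.5% in mutant cerebrum (n = 4) and 9.32% in wildtype cerebrum (n = 6), a difference that was not tested. Mutant 1 was the highest of the mutants for 11 of the 14 isodecoders and mutant 3 the lowest for 10. The mitochondrial share of the same libraries was 12.8% in mutant 1, the lowest of the mutants, and 15.7% in mutant 3, the highest, and its part in the spread was not tested.

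None of the 4 sums passed in cerebrum on the TMM scale (edgeR and DESeq2 called 0 of 4 each), beside 11.1% of 72 anticodons called, 2.78% lower and 8.33% higher. No sum had an unadjusted p under 0.05, while 21 of the 72 anticodons did (edgeR), 16 of them among the 22 mitochondrial ones. Of the 50 nuclear anticodons 5 did, and 0 of the 50 were called higher and 2 lower. The TCG sum, the most abundant, stood at 47417, 45248, 33343 and 43558 CPM in mutant cerebrum. In wildtype cerebrum it stood at 44885 to 51911 CPM (median 49634), and mutants 1 and 2 overlapped the wildtype range. Its log2 fold change was −0.22 ± 0.13 (SE; edgeR adjusted p = 0.271). The other sums had log2 fold changes of −0.17 ± 0.13 (ACG), −0.05 ± 0.13 (CCT) and 0.02 ± 0.12 (CCG; SE). Arg-TCT gave 0.03 ± 0.12 (SE), and the mitochondrial arginine tRNA gave 0.40 ± 0.15 in the same fit (SE; edgeR adjusted p = 0.0736). In the fit of isodecoders, which has its own TMM factors, the mitochondrial arginine tRNA gave 0.48 ± 0.13 (SE) and passed (adjusted p = 0.0106).

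In cerebellum no member passed on the TMM scale, and the member nearest to the threshold was an Arg-CCT isodecoder. Arg-CCT-1-1, which decodes AGG, stood at 1362, 1375, 1307, 1436 and 1292 CPM in mutant cerebellum. Wildtype cerebellum had 1615 to 1791 CPM (median 1730.3). Every mutant lay below every wildtype library, as for 1.98% of the 202 tRNAs tested, and of the 14 isodecoders it varied least within each group, with coefficients of variation of 4.23% in mutants and 4.04% in wildtype. The log2 fold change was −0.34 ± 0.09 (SE; edgeR adjusted p = 0.0514), and it passed with library totals in place of TMM, with no filter, with DESeq2 and without cerebellum mutant 5. Among the shallow libraries the 1 mutant read 1362 CPM, against a mean of 1715 CPM in the 5 wildtype ones. Among the deep libraries the 4 mutants averaged 1353 CPM, against 1743 CPM in the 1 wildtype library, so the direction was the same in both depth classes. With depth class in the fit the log2 fold change was −0.35 (edgeR adjusted p = 0.136).

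Arg-ACG-2-1 stood at 1921, 2047, 2481, 1871 and 2105 CPM in mutant cerebellum. Wildtype cerebellum had 2408 to 3214 CPM (median 2553), and mutant 3 alone reached the wildtype range. Its log2 fold change of −0.34 ± 0.11 (SE) did not pass (edgeR adjusted p = 0.1002), and passed without cerebellum mutant 3 (−0.41). By depth class, mutant over wildtype, it was −0.48 among the shallow and −0.24 among the deep libraries on the log2 scale. Arg-CCG-2-1 stood at 3589, 3518, 4199, 2878 and 3998 CPM in mutant cerebellum. Wildtype cerebellum had 2565 to 3450.2 CPM (median 2798), so the groups overlapped. Its log2 fold change was 0.34 ± 0.12 (SE; edgeR adjusted p = 0.119), with 0.29 among the shallow and 0.51 among the deep libraries. In all, edgeR called 0 of the 14, with 3 at an unadjusted p under 0.05 beside 40 of all 202 tRNAs and 25 of the 180 nuclear ones. DESeq2 on the same counts called these 3 members (Arg-CCT-1-1, Arg-ACG-2-1 and Arg-CCG-2-1) among 23 of all 202 tRNAs. The background was 2.48% of 202 tRNAs called by edgeR, 1.98% lower and 0.495% higher. The other 11 isodecoders lay between −0.28 (Arg-CCT-2) and 0.01 (Arg-ACG-3) on the log2 scale.

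The CCT sum had 10413, 9331, 9809, 10459 and 11118 CPM in mutant cerebellum. Wildtype cerebellum had 11067 to 14319 CPM (median 11579), and mutant 5 overlapped the wildtype range. The CCT sum was the only one of the 4 with an unadjusted p under 0.05 (edgeR), beside 17 of all 71 anticodons. Of those 17, 10 were mitochondrial and 7 were among the 49 nuclear anticodons. The log2 fold change of the CCT sum was −0.25 ± 0.11 (SE; edgeR adjusted p = 0.204). The TCG, ACG and CCG sums gave −0.18 ± 0.10, −0.14 ± 0.09 and −0.08 ± 0.11 (SE). Arg-TCT gave −0.27 ± 0.11 (SE; edgeR adjusted p = 0.204). EdgeR and DESeq2 called none of the 4, and edgeR called none of the 71 anticodons tested (0%). The mitochondrial arginine tRNA gave 0.28 ± 0.11 in the fit of sums (SE; edgeR adjusted p = 0.204) and 0.34 ± 0.12 in that of isodecoders (SE; adjusted p = 0.1002).

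Relative to the mitochondrial tRNAs and the spike-in, 5 of the 14 isodecoders were lower in mutant cerebellum and 11 in mutant cerebrum. In cerebrum 11 of the 14 isodecoders passed, all lower, beside 55.3% of all 208 tRNAs called lower. Those 208 include the 22 mitochondrial tRNAs that help to set this scale. Of the 186 nuclear tRNAs, 113 were called lower. The median log2 fold change was −0.46 over the members, −0.43 over all tRNAs and −0.48 over the nuclear ones. Arg-ACG-2-1 had 2778, 2541, 1683 and 1889 control-scaled CPM in mutant cerebrum. Wildtype cerebrum had 3652 to 5032 control-scaled CPM (median 4392). The groups did not overlap, which also held for Arg-CCG-1-1, Arg-CCT-3-1, Arg-TCG-3 and Arg-TCG-4-1 and for 28.8% of all cerebrum tRNAs. The log2 fold change of Arg-ACG-2-1 was −0.99 ± 0.15 (SE; edgeR adjusted p = 0.000108). Arg-CCT-3-1 (−0.78), Arg-TCG-4-1 (−0.74), Arg-TCG-3 (−0.70) and Arg-CCT-2 (−0.69) followed, and the 3 that did not pass were Arg-CCT-4-1 (−0.32), Arg-CCG-3-1 (−0.25) and Arg-CCG-2-1 (0.00). Arg-CCG-2-1 averaged 2881 ± 728 control-scaled CPM in mutant cerebrum (SD, n = 4) and 2874 ± 234 in wildtype cerebrum (SD, n = 6). Of the sums, TCG (−0.54 ± 0.14 SE, edgeR adjusted p = 0.0144) and ACG (−0.49 ± 0.16 SE, adjusted p = 0.0251) fell. The CCT (−0.37 ± 0.16 SE) and CCG sums (−0.30 ± 0.14 SE) did not pass. Of all anticodons 45.8% were called, and of the 50 nuclear ones 30 were, all lower.

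In cerebellum 5 of the 14 isodecoders fell on the control scale, beside 15.8% of 202 tRNAs called lower and 32 of the 180 nuclear ones. The 5 members were Arg-CCT-1-1 (−0.64), Arg-ACG-2-1 (−0.63), Arg-CCT-2 (−0.61), Arg-CCT-4-1 (−0.47) and Arg-CCG-3-1 (−0.42). The median was −0.45 over the 14 members, −0.33 over all tRNAs and −0.35 over the nuclear ones. Arg-CCT-1-1 read 967, 1495, 1412, 1342 and 892 control-scaled CPM in mutant cerebellum. Wildtype cerebellum had 1769 to 2174 control-scaled CPM (median 1872), and the groups did not overlap, as for 9.41% of all cerebellum tRNAs. Mutants 1 and 5 were the lowest. Their mitochondrial shares, 21.2% and 19.3%, were the highest of the mutant cerebellum libraries, and their part in the result was not tested. The CCT sum fell (−0.51 ± 0.13 SE; edgeR adjusted p = 0.0184), beside 14.1% of anticodons called and 9 of the 49 nuclear ones. The Arg-TCT sum fell as well (−0.53 ± 0.11 SE; edgeR adjusted p = 0.00648), but not with depth class in the fit (−0.58 ± 0.15 SE; adjusted p = 0.0628). With depth class in the fit all 14 were below 0, with a median of −0.56, and Arg-CCT-1-1 alone passed (−0.76 ± 0.22 SE; edgeR adjusted p = 0.0456), beside 7.92% of all tRNAs. Arg-ACG-2-1 (−0.76 ± 0.25), Arg-CCT-2 (−0.60 ± 0.20), Arg-CCT-4-1 (−0.47 ± 0.20) and Arg-CCG-3-1 (−0.38 ± 0.19 SE) did not pass in that fit, and the CCT sum did not pass (−0.54 ± 0.19 SE; adjusted p = 0.120), beside 1.41% of anticodons. The mitochondrial arginine tRNA, which is itself among the controls, gave 0.02 in cerebellum and 0.07 in cerebrum.

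**Figure D2:**
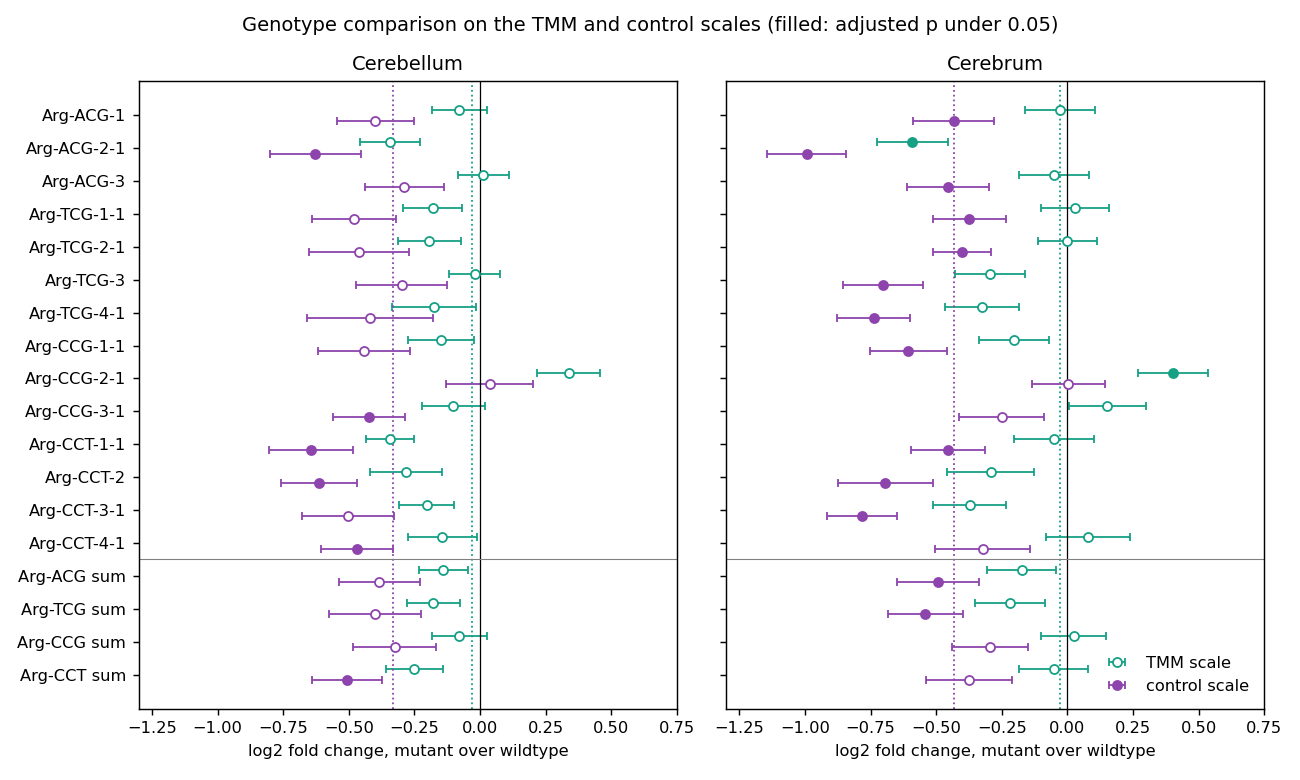
Log2 fold change of mutant over wildtype with its SE for the 14 isodecoders and 4 sums, cerebellum left and cerebrum right, on the TMM scale and on the control scale; filled points passed at an adjusted p under 0.05, and dotted lines are the medians of all tRNAs. On the control scale all points but those of Arg-CCG-2-1, at 0.04 in cerebellum and 0.00 in cerebrum, lie below 0, and in cerebrum Arg-ACG-2-1 is the lowest on both scales.

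The authors' deposited tables, which rest on the control scale, listed 8 of the 14 isodecoders at an adjusted p under 0.05 in cerebellum, where 24.4% of all rows were, and 11 of the 14 in cerebrum, where 57.6% of all rows were. The authors' deposited table for cerebellum gave Arg-CCT-1-1 a log2 fold change of −0.64 (adjusted p = 0.00162). The authors' deposited isodecoder table for cerebrum gave Arg-ACG-2-1 0.99 (adjusted p = 2.41e-08), in the direction wildtype over mutant, since the signs of that table run against the counts in all 209 rows compared.

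The make-up of each anticodon, which no scaling between libraries can change, differed between genotypes in cerebrum for 8 of the 14 isodecoders, 4 of which were lower and 4 higher. Among all 178 nuclear isodecoders tested 47.2% differed, 27% lower and 20.2% higher (limma on the log2 ratio of an isodecoder to the rest of its anticodon, adjusted p under 0.05). The shares of an anticodon sum to a whole, so that a higher share of one isodecoder entails a lower share elsewhere. Arg-ACG-2-1 held 7.48, 9.05, 7.68 and 7.70% of Arg-ACG counts in mutant cerebrum. In wildtype cerebrum it held 9.74 to 12.4% (median 11.3). All mutants lay below all wildtype libraries, as for 19.7% of the 178 isodecoders, and the log2 ratio differed by −0.55 ± 0.08 (SE; limma adjusted p = 0.000493). Arg-ACG-1, the main isodecoder of that anticodon, held 62.6% ± 0.811 in mutant cerebrum (SD, n = 4) and 60.0% ± 0.835 in wildtype cerebrum (SD, n = 6; 0.16 ± 0.04 SE, limma adjusted p = 0.0108).

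Within Arg-CCG, Arg-CCG-2-1 took a larger share in the mutants of both tissues. In cerebellum it held 23.1, 26.3, 27.0, 21.8 and 25.3% of Arg-CCG counts in mutants. Wildtype cerebellum had 17.8 to 20.4% (median 19.8). In cerebrum it held 18.9, 18.4, 17.1 and 18.02% in mutants, and in wildtype 13.3 to 16.3% (median 14.9). In each tissue all mutants lay above all wildtype libraries, as did 3.37% of nuclear isodecoders in cerebellum and 12.4% in cerebrum. The log2 ratio differed by 0.44 ± 0.08 in cerebellum (SE; limma adjusted p = 0.00757) and by 0.34 ± 0.07 in cerebrum (SE; adjusted p = 0.00306). Both passed in every fit that left out 1 library. In cerebellum the difference was 0.38 and no longer passed with depth class in the fit (limma adjusted p = 0.0920). In cerebrum Arg-CCG-1-1 held 21.9% ± 2.54 in mutants (SD, n = 4) and 27.4% ± 3.25 in wildtype (SD, n = 6; −0.43 ± 0.13 SE, limma adjusted p = 0.0159), a call lost without cerebrum mutant 3 (−0.37).

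Within Arg-TCG, the main isodecoder held a smaller share in mutant cerebrum. Arg-TCG-3 held 42.5, 44.3, 39.8 and 42.7% of Arg-TCG counts in mutant cerebrum. Wildtype cerebrum had 45.1 to 50.8% (median 47.6), with no overlap (−0.30 ± 0.07 SE, limma adjusted p = 0.00739). Arg-TCG-1-1 held 38.3% ± 1.46 in mutants (SD, n = 4) and 34.2% ± 1.67 in wildtype (SD, n = 6; 0.26 ± 0.06 SE, limma adjusted p = 0.00758). In cerebellum Arg-TCG-3 held 40.7% ± 1.65 in mutants (SD, n = 5) and 37.9% ± 1.05 in wildtype (SD, n = 6), and the difference did not pass (0.17 ± 0.06 SE, limma adjusted p = 0.119). Whether the shift in share differs between the tissues was not tested.

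Within Arg-CCT, Arg-CCT-2 held 8.59, 7.78, 8.75 and 8.04% in mutant cerebrum. Wildtype cerebrum had 9.29 to 10.8% (median 10.6), again with no overlap (−0.35 ± 0.06 SE, limma adjusted p = 0.00106). Arg-CCT-4-1, which makes up most of this anticodon, held 85.6% ± 2.15 in mutants (SD, n = 4) and 82.7% ± 1.52 in wildtype (SD, n = 6; 0.32 ± 0.11 SE, limma adjusted p = 0.0340), a call lost in 6 of the 10 fits that left out 1 library (mutant 1, 2 or 4, or wildtype 3, 4 or 5). In cerebellum Arg-CCG-2-1 was the only one of the 14 whose share passed, beside 9.55% of 178, 5.06% higher and 4.49% lower. The other isodecoder shares in cerebellum had log2 ratio differences from −0.30 (Arg-ACG-2-1, limma adjusted p = 0.109) to 0.17 (Arg-TCG-3).

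**Figure D3:**
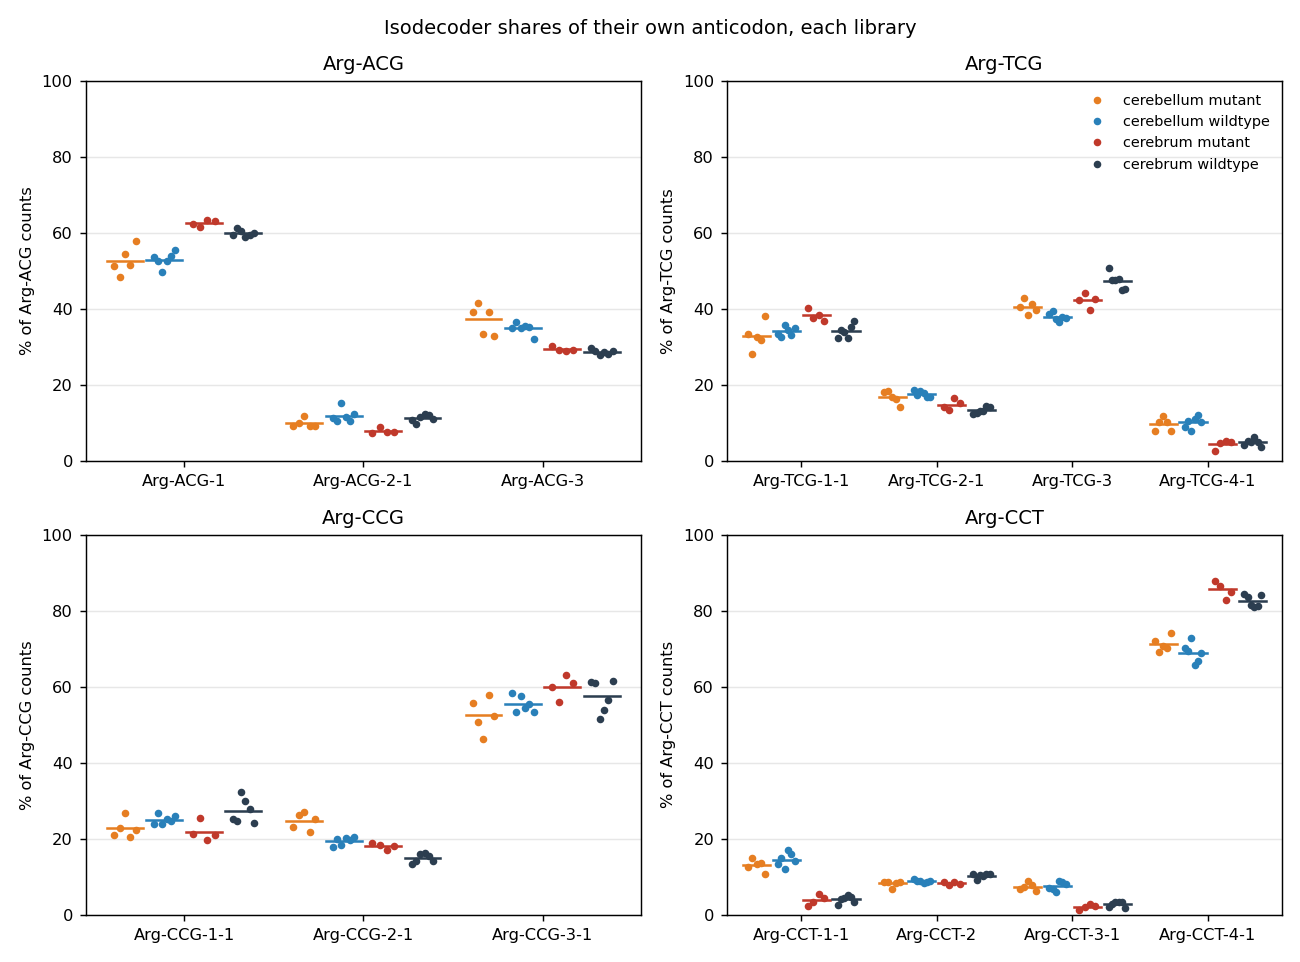
Percent of each anticodon's counts held by each of its isodecoders; each point is 1 library, lines are group means, and the groups run cerebellum mutant, cerebellum wildtype, cerebrum mutant, cerebrum wildtype from left to right. In each tissue the mutants lie above wildtype for Arg-CCG-2-1, mutant cerebrum lies below wildtype cerebrum for Arg-ACG-2-1, and Arg-CCT-1-1 and Arg-CCT-3-1 hold more of Arg-CCT in cerebellum than in cerebrum.

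Among the anticodons of the nuclear arginine pool, CCG took a slightly larger part in mutant cerebrum, as did Arg-TCT. CCG held 16.1, 15.4, 16.5 and 15.2% of nuclear arginine counts in mutant cerebrum. Wildtype cerebrum had 13.1 to 15.3% (median 14.2), and the groups overlapped. The log2 ratio to the other arginine anticodons differed by 0.19 ± 0.06 (SE; limma adjusted p = 0.0490), beside 17.9% of 39 anticodons called, 12.8% higher and 5.13% lower. This call rested on single libraries: it was lost in 9 of the 10 fits that left out 1 library, all but the one without wildtype 6, with differences of 0.17 to 0.22. TCG held 37.2% ± 1.92 in mutant cerebrum (SD, n = 4) and 39.5% ± 1.5 in wildtype cerebrum (SD, n = 6), and neither TCG, ACG nor CCT passed. Arg-TCT held 6.39% ± 0.486 in mutant cerebrum (SD, n = 4) and 5.73% ± 0.251 in wildtype cerebrum (SD, n = 6). Its log2 ratio also passed (0.17 ± 0.05 SE, limma adjusted p = 0.0490), and its fits without 1 library were not examined. In cerebellum 0 of the 4 passed (limma; none at an unadjusted p under 0.05), beside 2.56% of 39, with TCG at 39.1% ± 3.37 in mutants (SD, n = 5) and 39.5% ± 0.754 in wildtype (SD, n = 6).

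**Figure D4:**
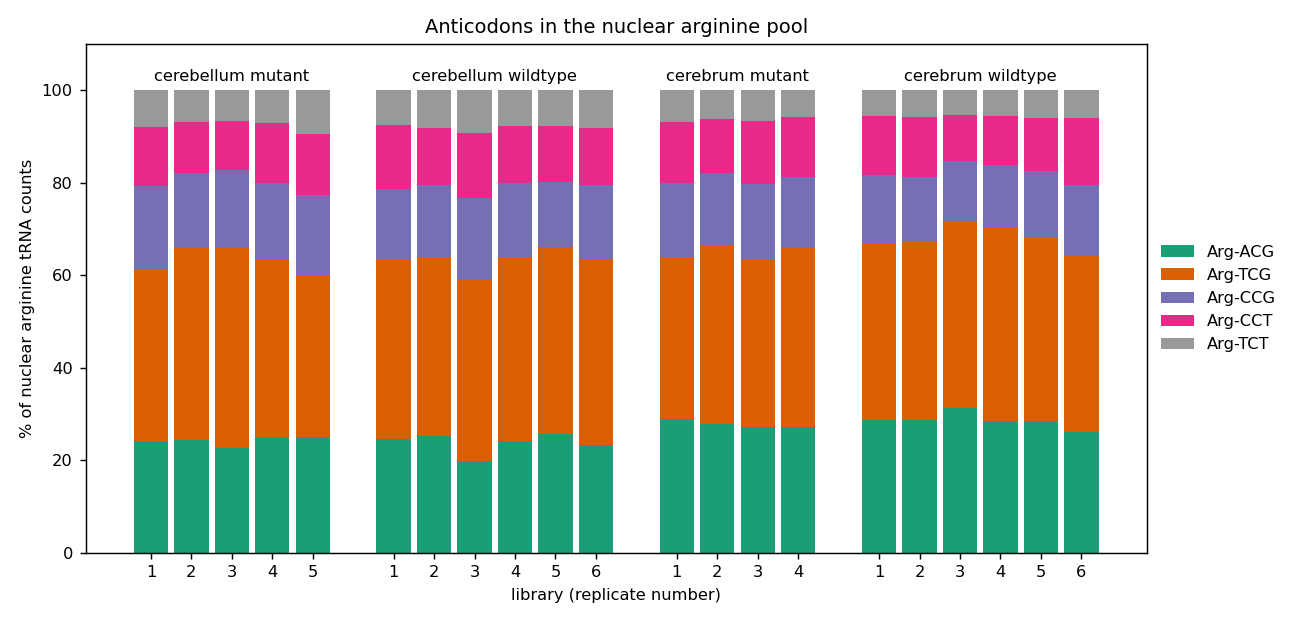
Stacked percent of nuclear arginine tRNA counts held by each of the 5 anticodons, 1 bar per library, with each tissue's mutants left of its wildtype libraries. TCG and ACG are the largest parts in every library, and CCG averages 15.8% ± 0.569 in mutant cerebrum and 14.1% ± 0.835 in wildtype cerebrum (SD).

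The size of the genotype difference was not shown to differ between the tissues for any member. The test of the difference, mutant minus wildtype in cerebellum less the same in cerebrum, called 0 of 14 isodecoders and 0 of 4 sums (edgeR; none at an unadjusted p under 0.05, and DESeq2 also called 0), beside 4.9% of 204 isodecoders and 1.39% of 72 anticodons. An unadjusted p under 0.05 was found for 30 of the 204 isodecoders and 7 of the 72 anticodons. Among nuclear tRNAs alone these were 28 of 182 isodecoders and 3 of 50 anticodons. The difference was −0.31 for Arg-CCT-1-1 (95% interval −0.67 to 0.06), 0.24 for Arg-ACG-2-1 (−0.14 to 0.61) and −0.08 for Arg-CCG-2-1 (−0.46 to 0.30), all in log2 units.

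Between wildtype tissues 13 of the 14 isodecoders differed: 10 were lower in cerebellum than in cerebrum, 3 were higher, and all 4 sums were lower. Of these, Arg-CCT-1-1 no longer passed, and Arg-CCT-3-1 and Arg-TCG-4-1 turned from positive to negative when the spike-in alone set the scale, and Arg-TCG-2-1 lay at 0.0037 with library totals. The background was also high, with 71.1% of 204 isodecoders and 75% of 72 anticodons called. Of all isodecoders 37.7% were lower and 33.3% higher, and of all anticodons 38.9% were lower and 36.1% higher. The median log2 fold change, cerebellum over cerebrum, was −0.66 over the members and −0.05 over all isodecoders. For this comparison all 21 libraries were scaled together. The ACG sum averaged 20797 ± 1199.6 CPM in wildtype cerebellum and 39591 ± 4102 CPM in wildtype cerebrum (SD, n = 6 each; log2 fold change −0.93 ± 0.11 SE, edgeR adjusted p = 5.10e-09). The TCG (−0.66 ± 0.11), CCT (−0.58 ± 0.13) and CCG sums (−0.49 ± 0.12 SE) were lower by less. Arg-TCT gave −0.16 ± 0.12 (SE) and did not pass (edgeR adjusted p = 0.224). All but 1 of the wildtype cerebellum libraries were shallow and all cerebrum libraries were deep, and with depth class in the fit the 4 sums passed again, from −0.87 (ACG) to −0.59 (TCG).

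Within Arg-CCT the isodecoders moved in opposite directions. Arg-CCT-1-1 stood at 1448 to 1592 CPM (median 1535) in wildtype cerebellum. In wildtype cerebrum it stood at 454 to 741 CPM (median 679). The log2 fold change was 1.24 ± 0.12 (SE; edgeR adjusted p = 1.10e-09). On a scale set by the spike-in alone, on which the median of all isodecoders was −0.99, it was 0.36 and did not pass (edgeR adjusted p = 0.132). Arg-CCT-3-1 was also higher in cerebellum (0.83 ± 0.12 SE), with 796 ± 62.1 CPM in wildtype cerebellum and 448 ± 52.9 CPM in wildtype cerebrum (SD, n = 6 each). On the spike-in scale its log2 fold change was −0.05. The spike-in's share of counts was 0.634% ± 0.178 in wildtype cerebellum and 0.266% ± 0.0351 in wildtype cerebrum (SD, n = 6 each). Arg-CCT-4-1 and Arg-CCT-2 were lower (−0.87 ± 0.14 and −0.83 ± 0.14 SE). The main isodecoder Arg-CCT-4-1 held 69.0% ± 2.58 of Arg-CCT counts in wildtype cerebellum and 82.7% ± 1.52 in wildtype cerebrum (SD, n = 6 each). Arg-CCT-1-1 held 14.6% ± 1.82 in wildtype cerebellum and 4.10% ± 0.929 in wildtype cerebrum (SD, n = 6 each).

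The steepest differences in the other direction were in Arg-ACG-1 and Arg-TCG-3, the main isodecoders of their anticodons. Arg-ACG-1 stood at 8941 to 11348 CPM (median 10823) in wildtype cerebellum. In wildtype cerebrum it stood at 20132 to 26229.9 CPM (median 22811). Its log2 fold change was −1.13 ± 0.12 (SE; edgeR adjusted p = 1.31e-09). Arg-TCG-3 gave −1.01 ± 0.11 (SE), and its share of Arg-TCG was 37.9% ± 1.05 in wildtype cerebellum and 47.4% ± 2.10 in wildtype cerebrum (SD, n = 6 each). Arg-TCG-4-1, the minor isodecoder of the same anticodon, was higher in cerebellum (0.36 ± 0.15 SE, edgeR adjusted p = 0.0387). That call did not hold on the control scale and was lost without any of 7 single libraries (wildtype cerebellum 2, 4, 5 or 6, or wildtype cerebrum 1, 2 or 6), and on the spike-in scale the log2 fold change was −0.57. Arg-TCG-2-1 passed at −0.29 ± 0.12 (SE) and did not pass with depth class in the fit (−0.32), on the control scale (−0.35), with DESeq2, or without wildtype cerebellum 2, 4 or 5 or wildtype cerebrum 5 or 6. Arg-CCG-2-1 was the member that did not pass (−0.14 ± 0.13 SE, edgeR adjusted p = 0.341), and its library-total value was 0.16.

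**Figure D5:**
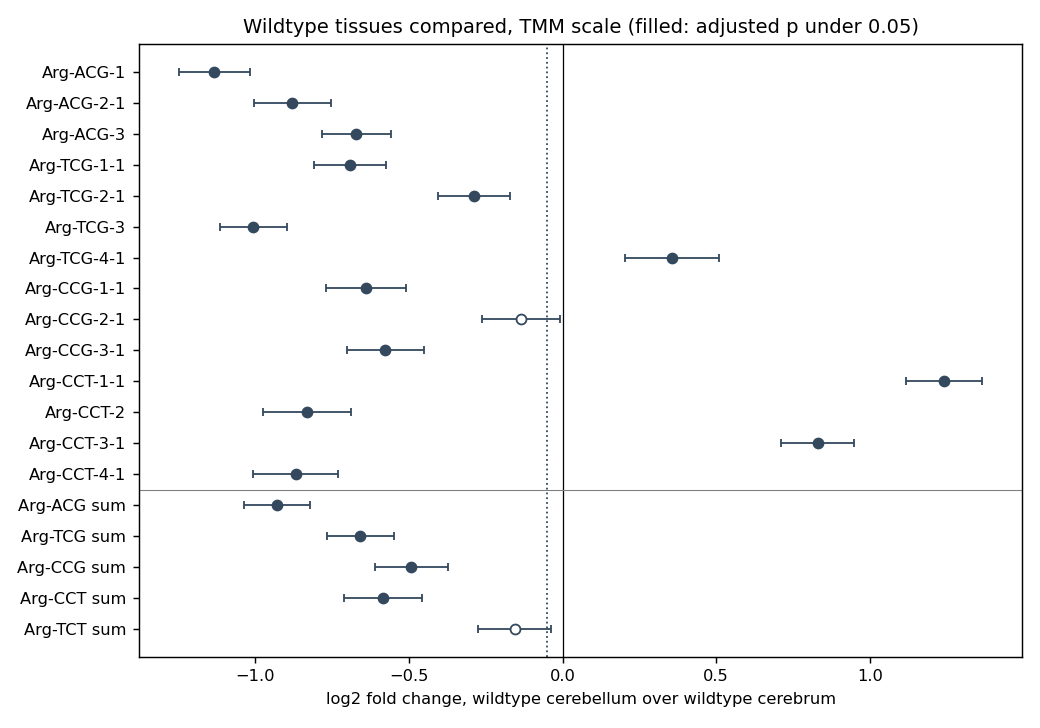
Log2 fold change of wildtype cerebellum over wildtype cerebrum with its SE for the 14 isodecoders, the 4 sums and Arg-TCT on the TMM scale; filled points passed at an adjusted p under 0.05 and the dotted line is the median of all isodecoders. Arg-CCT-1-1, Arg-CCT-3-1 and Arg-TCG-4-1 lie right of 0 and all other members left of it.

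Other tRNAs whose anticodon starts with A, in which that A is likewise generally converted to inosine, were set beside Arg-ACG. In the tissue comparison, 20 of the 31 such isodecoders of other amino acids were higher in cerebellum and 6 lower, with a median log2 fold change of 0.65, while the 3 Arg-ACG isodecoders were all lower. In mutant cerebrum 7 of these 31 fell and none rose (edgeR on the TMM scale), with a median of −0.19, and of the 3 Arg-ACG isodecoders 1 fell. In mutant cerebellum 1 of the 31 fell and none rose, with a median of −0.05, and none of the 3 Arg-ACG isodecoders passed. Across all nuclear tRNAs of other amino acids, 22 of 167 fell and 1 rose in mutant cerebrum, with a median of −0.07. In mutant cerebellum 4 of 161 fell and 1 rose, with a median of −0.05, beside −0.16 over the 14 members.

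The patterns of the sums over the 21 libraries were also compared with those of the other nuclear anticodons, by the root mean square difference of centred log2 CPM, which is 0 for equal patterns. Nearest to the ACG sum were Gln-CTG (0.18) and Arg-TCG (0.18). Nearest to the TCG sum were Asn-GTT (0.13) and Ser-GCT (0.16). The CCG sum lay nearest to Asp-GTC (0.13) and Arg-CCT (0.14), and the CCT sum nearest to Arg-CCG (0.14) and SeC-TCA (0.18), the selenocysteine tRNA. All of these share the 21 libraries and their scaling.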

How the data were processed

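QuantM-tRNA-seq reads were processed by the authors with cutadapt, Bowtie2, featureCounts and DESeq2 and the mm10 build, per the submitters' processing notes, which give no versions. The authors deposited raw counts of reads for every tRNA. Per the file headers, the authors' comparison tables also give a mean signal (their normalized level), log2 fold changes, a test statistic or score, p-values and adjusted p-values. The size factors behind that signal equal the median of ratios over the 22 mitochondrial tRNAs and the spike-in, a row of 0.222 to 1.08% of counts that was left out of totals and tests.

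Counts were tested in R 4.3.3 with edgeR 4.0.16: filterByExpr with a minimum count of 10, TMM factors computed for isodecoders and for sums apart, robust quasi-likelihood fits, and adjustment over all features with a threshold of 0.05. An SE is the log2 fold change over the square root of F, and 95% intervals are normal. Shares were tested with limma 3.58.1 (offset 0.5). Scripts were tested on simulated counts, and DESeq2 1.42.0 was an alternative. Tests within a tissue used that tissue's libraries, and tests across tissues all 21. No 2 libraries of a group agreed within sampling noise. The genes named are all members by rule, with Arg-TCT, the mitochondrial arginine tRNA and the 2 most alike anticodons. The rule for the members uses names alone, but these anticodons were taken up, and the lists and tests chosen, with earlier results of these data known.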

Additional observations from a re-analysis of the deposited data

Results flagged for a closer look

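Among 72 sets of libraries (14 isodecoders and 4 sums in 4 groups), 5 TMM CPM values stood apart from the rest of their group by Dixon's test at the 95% level, which chance alone would flag in about 1 in 20 groups. Cerebellum wildtype 3 had 3214 CPM of Arg-ACG-2-1, where the other 5 wildtype cerebellum libraries had 2408 to 2682 CPM. The same library had 10797 CPM of Arg-CCG-3-1, where the others had 7217 to 8505 CPM. Cerebrum mutant 1 had 14092 CPM of Arg-CCG-3-1, where the other 3 mutants had 9905 to 10426 CPM, and 1651 CPM of Arg-CCT-2, where they had 1089 to 1176 CPM. Cerebellum wildtype 2 had 757 CPM of Arg-CCT-3-1, where the other 5 wildtype cerebellum libraries had 892 to 943 CPM.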

How the results depend on the processing

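What the libraries are scaled to moved the genotype results most, and the cause was not tested. Of the 14 isodecoders, edgeR called 2 in mutant cerebrum on the TMM scale, where it called 41 of all 208 tRNAs. It called 11 with mitochondrial totals (of all tRNAs 111), 6 with the spike-in (74), 11 on the control scale (115), and 1 to 3 without 1 library. In mutant cerebellum it called 0 with TMM (of all 202 tRNAs 5), 1 with library totals (9), 10 with mitochondrial totals (53), 12 with the spike-in (83), 5 on the control scale (32), 1 on that scale with depth class in the fit (16), 1 with no filter (9 of 208) and 0 to 1 without 1 library, while DESeq2 called 3 (23 of 202). Of the 4 sums it called 0 in cerebellum with TMM, against 1 with mitochondrial totals (of all 71 anticodons 11), 3 with the spike-in (16) and 1 on the control scale (10). In cerebrum it called 0 of the sums (of all 72 anticodons 8), against 3 with mitochondrial totals (26) and 2 on the control scale (33). The control scale, with and without depth class, was chosen after seeing the data.

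Changes of direction were counted where either value was called or both exceeded their SE. In mutant cerebrum Arg-CCG-3-1 turned to −0.24 with mitochondrial totals, −0.21 with the spike-in and −0.25 on the control scale, Arg-TCG-1-1 to −0.37 with mitochondrial totals and −0.37 on the control scale, and Arg-TCG-2-1 to −0.39 and −0.40. Between wildtype tissues Arg-CCG-2-1 turned to 0.16 and Arg-TCG-2-1 to 0.0037 with library totals, and with the spike-in Arg-CCT-3-1 turned to −0.051 and Arg-TCG-4-1 to −0.57. Without 1 library, 11 to 13 of the 14 passed between wildtype tissues, 7 to 8 of the isodecoder shares in cerebrum, 1 to 3 of those in cerebellum and 0 to 1 of the anticodon shares in cerebrum. With depth class in the fit 0 of the isodecoder shares in cerebellum passed (1 of all 178).

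Same-numbered libraries were not established as pairs: the deviations of mutant and wildtype correlated above 0.1 in 2 of 5 pairs in cerebellum and 3 of 4 in cerebrum, those of the tissues in 1 of 4 mutant and 4 of 6 wildtype pairs, and in each tissue 1 mutant correlated best with its own number. With a replicate block 4 isodecoders were called in cerebrum (65 of all 208), with Arg-TCG-3 and Arg-TCG-4-1 added, and 0 of the anticodon shares there (8 of 39). Between wildtype tissues the block called 13 isodecoders (155 of 204) and all 4 sums (55 of 72). Among single members, 856 values under the other alternatives kept direction and call, 71 gained a call, 16 lost one and 11 changed direction. Depth limits the cerebellum most, where 6 of 11 libraries were shallow.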
